A study of Mus musculus with 6 samples.

Results

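The genes described here are 10 components of interleukin-7 (IL-7) signalling in mouse B cell precursors, chosen by name from the route that runs from the receptor through the JAK kinases to STAT5. They were *Il2rg*, *Jak1*, *Jak3*, *Stat5a*, *Stat5b*, *Cish*, *Socs2*, *Socs3*, *Pim1* and *Pim2*, and all 10 had a row among the 13426 genes of the deposited table. IL-7 is made by bone marrow stroma and is the main growth and survival cytokine of mouse pro-B and large pre-B cells. It binds a receptor of the IL-7 receptor α chain (*Il7r*) and the common γ chain (*Il2rg*). JAK1 on the α chain and JAK3 on the γ chain then phosphorylate STAT5A and STAT5B, which enter the nucleus and switch on target genes. Those targets include *Cish*, *Socs2* and *Socs3*, whose products restrain cytokine receptors and JAK kinases, and the serine/threonine kinase genes *Pim1* and *Pim2*, which favour survival and growth.

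RNA was sequenced from large pre-B cells at their early stage (early LPre-B), sorted from bone marrow as lineage-negative, B220+ precursors lacking surface IgM and CD2 and bearing CD43. Both groups carried *Upf1* alleles with loxP sites around internal exons (*Upf1* Flox/Flox). Ctrl mice were Mb1 +/+ and had no Cre, whereas *Upf1*-cKO mice were Mb1 Cre/+, with Cre in one copy of *Cd79a* (Mb1), so that loss of UPF1, an RNA helicase of nonsense-mediated decay, began in the B lineage. No agent was given, the mice were age-matched adults of both sexes per the study's methods, and each group had 3 libraries. The comparison asked how transcript levels of the pathway differed between the 2 genotypes in cells sorted through the same gate. Replicates are called independent in the study's methods, but the labels do not tie each library to an animal.

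Values are normalised reads, the deposited signal per gene, in which 1 unit is about 1 read per 1000000 of the effective library size. Between 9732498 and 11006834 reads were recovered per library. A member rested on as few as 6 reads (*Socs3* in Ctrl replicate 3) and on as many as 2567 (*Jak1* in Ctrl replicate 2). Fold changes are limma's on log2(normalised reads + 1), *Upf1*-cKO minus Ctrl, with a moderated standard error (SE), and adjusted p-values are limma's, over all 13426 genes. A gene was called at an adjusted p below 0.05, which 52.7% of all genes reached (27.7% higher and 25.0% lower in *Upf1*-cKO). The median log2 fold change over all genes was 0.01. The *Upf1* row, which counts the whole gene with the exons left undeleted, held 241 ± 32.3 normalised reads in Ctrl and 297 ± 12.7 in *Upf1*-cKO (mean ± SD, n = 3) and therefore does not check the deletion. It was called higher (log2 fold change 0.31, adjusted p = 0.0070), a call lost with median centring (0.0645) and without limma's trend (0.0685).

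B lineage genes were read in both groups, but several markers of the sorted stage differed between them. All 12 genes of a B lineage list had a row, and their summed level was 2316 to 2591 normalised reads in Ctrl and 2965 to 3206 in *Upf1*-cKO. Of the 12, 7 were called higher and 1 lower (66.7% called, beside 52.7% of all genes). The genes of antigen receptor recombination *Dntt*, *Rag1* and *Rag2* and the surrogate light chain gene *Vpreb2* were higher by 1.64, 1.55, 1.16 and 1.26 on the log2 scale. *Cd79a*, of which one copy carries Cre in *Upf1*-cKO only, fell from 221 ± 11.4 to 73.3 ± 1.85 normalised reads (-1.58 on the log2 scale). The part of the Cre copy in that fall was not tested. *Spn*, which encodes CD43, was at 217 ± 22.8 in Ctrl and 225 ± 5.94 in *Upf1*-cKO and was not called. *Cd2* was called lower, at 2.90 ± 1.13 and 0.653 ± 0.284 (log2 fold change -1.21, adjusted p = 3.62e-04). Of the other stage markers, *Kit* was called higher, and *Il2ra* (CD25) and *Ptprc* (B220) were called lower, as given below. Among the lists of other cell types, that of neutrophils differed most in its sum. The 9 neutrophil genes, all with a row, summed to 123, 19.0 and 14.7 normalised reads in the 3 Ctrl libraries. In *Upf1*-cKO they summed to 464, 355 and 331. Of the 9, 4 were called higher and none lower (44.4% called, beside 52.7% of all genes). Ctrl replicate 1 thus lay apart from the other Ctrl libraries in this sum, and the log2 fold changes of members without it are given below. Over all genes it was Ctrl replicate 3 that differed most from the other Ctrl libraries, with a chi-square per degree of freedom of 19.0 and 22.0 against 8.36 between replicates 1 and 2. Of the early granule genes on that list, *Elane* was called higher, at 0.521 ± 0.350 in Ctrl and 1.87 ± 0.374 in *Upf1*-cKO. *Mpo* was not called (4.81 ± 3.34 and 5.98 ± 1.38, adjusted p = 0.376), and *Prtn3* was near 1 in both groups (0.901 ± 0.227 and 0.915 ± 0.681). Summed levels in Ctrl and *Upf1*-cKO ranged over 69.1 to 108 and 89.2 to 117 for 7 monocyte and macrophage genes, 293 to 321 and 325 to 356 for 5 plasmacytoid dendritic genes, and 60.9 to 69.0 and 81.3 to 92.6 for 5 mature B genes. Of the monocyte and macrophage genes, 1 was called higher and 1 lower. Among the plasmacytoid dendritic genes 3 were called higher and none lower, and the same held for the mature B genes. The 3 erythroid genes of 7 with a row summed to 6.82 to 11.8 and 8.39 to 9.42, and none was called. Only 2 of 8 T and NK cell genes had a row, and 1 of these was called higher. Their sum was 1.17 to 1.59 in Ctrl and 3.79 to 5.27 in *Upf1*-cKO. The T cell receptor complex genes *Cd3d*, *Cd3e* and *Cd3g* had no row.

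STAT5 dimers bind the palindrome TTCNNNGAA, so the RefSeq windows around the starts of the members (GRCm38.p6, 250 bases before to 50 after an annotated start) were searched for it. Being its own reverse complement, the motif reads alike on both strands. Windows were found for all members but *Socs2*, 9 of 10 with 12 windows in all, and the motif lay in those of 2 members, *Cish* and *Socs3*. Of the 12 member windows, 16.7% held the motif and 8.33% held it at least 2 times. Among 32851 windows of the same length in the genome, 8.30% held the motif and 0.457% held it at least 2 times. The 2 stretches below hold all the matches found, in the 2 members that also had the largest differences. A link between the motif and these differences was not tested. They are 30 bases each, 5′ to 3′ on the strand of the gene, with the motif in capitals.
*Cish*, chr9:107296654-107296683 (+): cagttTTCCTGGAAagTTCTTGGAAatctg
*Socs3*, chr11:117969501-117969530 (−): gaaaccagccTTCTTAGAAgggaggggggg
The first motif of *Cish* began at position 1, the annotated start itself, and the second at position 12. The motif of *Socs3* began 154 bases before the start (position -154), a start that lies inside the RefSeq gene, since another *Socs3* transcript begins further upstream. A match describes these letters, and no binding was measured.

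Of the 10 members, 6 were called higher in *Upf1*-cKO, 1 was called lower and 3 were not called. That was 70.0% called, beside 52.7% of all genes (27.7% higher and 25.0% lower). The median log2 fold change of the members was 0.45. *Jak1* was the gene called lower, *Jak3*, both *Stat5* genes and the 3 feedback inhibitor genes were called higher, and *Il2rg*, *Pim1* and *Pim2* were not called, as the plot of normalised reads by library shows. At the stricter call, which asks in addition for a log2 fold change of 1 or more in size, only *Cish* and *Socs3* remained, both higher. Of all genes, 11.0% met that call, 7.50% higher and 3.54% lower. The groups did not overlap for 7 members, 6 of them higher, beside 58.8% of all genes (30.9% higher and 28.0% lower). In bulk RNA, fewer cells of a type and less RNA per cell cannot be told apart.

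**Figure D1:**
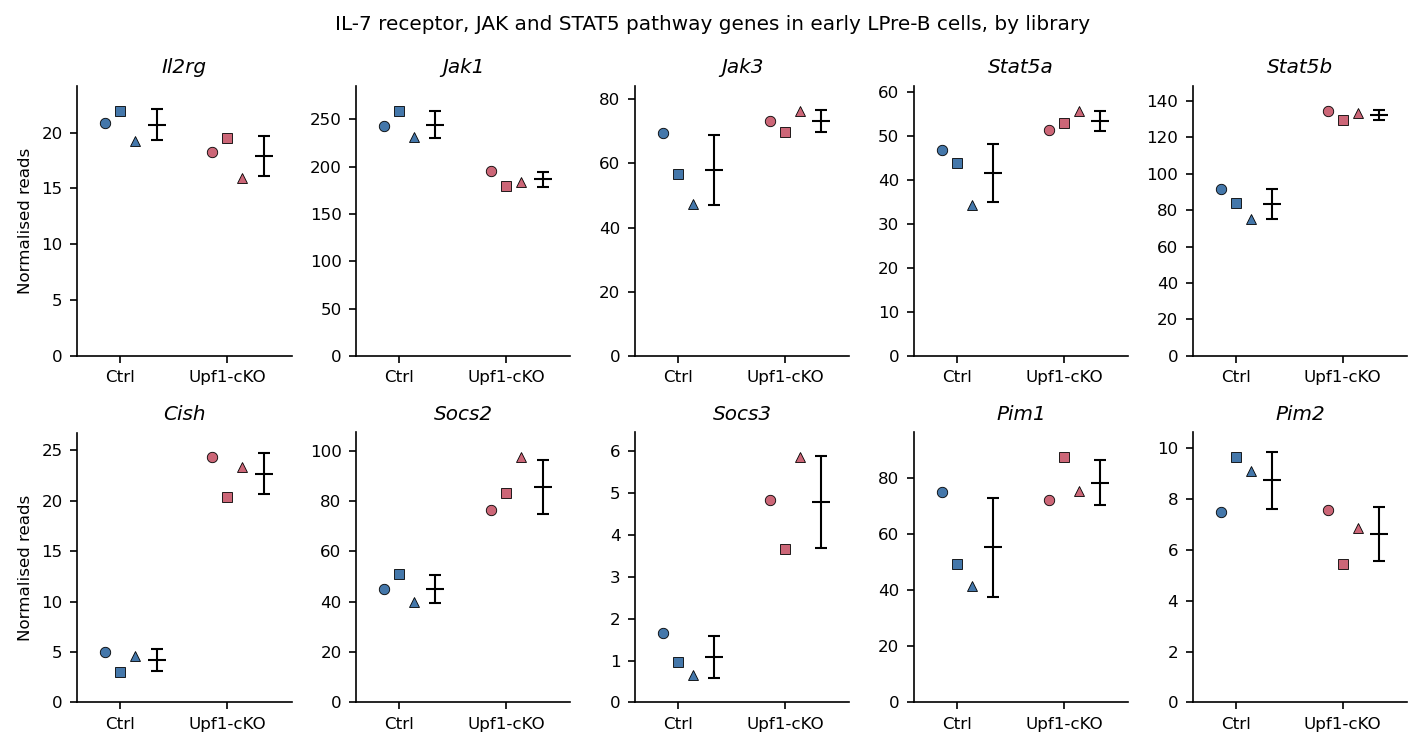
Normalised reads (vertical axis, linear from 0) of each of the 10 members in the 3 Ctrl libraries (blue) and the 3 Upf1-cKO libraries (red); circles, squares and triangles are replicates 1, 2 and 3, and the black bar with whiskers is the mean ± SD. Cish, Socs2, Socs3 and Stat5b stand clear of Ctrl in all 3 Upf1-cKO libraries, Jak1 lies below it in all 3, and Il2rg, Pim1 and Pim2 overlap.

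*Il2rg* encodes the common γ chain, which the receptors for IL-2, IL-4, IL-7, IL-9, IL-15 and IL-21 share. The gene (Entrez 16186, chrX:101264385-101268255, − strand) held 20.9, 22.0 and 19.2 normalised reads in Ctrl replicates 1 to 3 and 18.3, 19.5 and 16.0 in *Upf1*-cKO replicates 1 to 3. The groups overlapped, since the highest *Upf1*-cKO library lay above the lowest Ctrl library. The log2 fold change was -0.20 (SE 0.127, 95% interval -0.47 to 0.07, adjusted p = 0.200). It was called lower with median centring (-0.31, adjusted p = 0.0490) and with quantile normalization (-0.31, adjusted p = 0.0444). GENCODE places another gene model, *Gm20489*, over 43.6% of its exon bases, while no RefSeq gene overlaps *Il2rg*. The annotation used for counting is not given in the sources used here.

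*Il7r*, the partner chain of the receptor, is not one of the 10 and was singled out after its values were seen. It held 362, 299 and 366 normalised reads in Ctrl and 225, 215 and 231 in *Upf1*-cKO, where every library lay below every Ctrl library. It fell by 0.61 on the log2 scale (SE 0.083, adjusted p = 6.53e-06), and it was called lower in each of the 19 settings run. Per kb of the longest coding transcript, its Ctrl level of 96.7 was above that of each of the 10 members.

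*Jak1* (Entrez 16451, chr4:101151974-101265282, − strand) encodes the kinase that sits on the α chain and also serves interferon and IL-6 family receptors. It held 243, 259 and 232 normalised reads in Ctrl and 195, 180 and 184 in *Upf1*-cKO. It was the only member called lower, with a log2 fold change of -0.39 (SE 0.075, 95% interval -0.55 to -0.23, adjusted p = 2.71e-04), and the groups did not overlap. The call depended on scaling, since with libraries scaled to their total reads, which moves the median of all genes to 0.19, the difference was -0.19 (adjusted p = 0.0507).

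*Jak3* (Entrez 16453, chr8:71676383-71690577, + strand) encodes the kinase bound to the γ chain and is largely restricted to blood cells. Its Ctrl libraries were spread over 69.5, 56.8 and 47.5 normalised reads, while those of *Upf1*-cKO lay close together at 73.3, 69.8 and 76.5. The lowest *Upf1*-cKO library exceeded the highest Ctrl library by less than the Ctrl SD of 11.0. By limma, *Jak3* rose by 0.35 on the log2 scale (SE 0.112, 95% interval 0.11 to 0.58, adjusted p = 0.0142). That call was lost without Ctrl replicate 3 (0.22, adjusted p = 0.0817) and without *Upf1*-cKO replicate 3 (0.32, adjusted p = 0.0646). It was also lost with median centring (adjusted p = 0.0784) and without limma's trend (adjusted p = 0.0807). *Insl3*, a gene on the same strand, covers 9.05% of its exon bases.

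The ratio of the 2 kinases within a library is nearly unaffected when all values of that library are multiplied by 1 factor (ratios here are of normalised reads + 1). Log2(*Jak3*/*Jak1*) was -1.79, -2.17 and -2.26 in Ctrl and -1.40, -1.35 and -1.26 in *Upf1*-cKO, so that *Jak3* stood at 0.237 and 0.392 of *Jak1*, in reads and not per length. The means, -2.07 ± 0.25 and -1.34 ± 0.073 (SD, n = 3), differed by 0.74, and every *Upf1*-cKO library was above every Ctrl library. The exact two-sided permutation test gave p = 0.1, the smallest that 20 assignments of 6 libraries allow.

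STAT5A and STAT5B are encoded by neighbouring genes on chromosome 11 and have very similar sequences. *Stat5b* (Entrez 20851, chr11:100780731-100859004, − strand) held 91.4, 84.0 and 74.9 normalised reads in Ctrl and 135, 129 and 133 in *Upf1*-cKO. The lowest *Upf1*-cKO library stood well above the highest Ctrl library, and the mean rose from 83.4 ± 8.26 to 132 ± 2.70. The log2 fold change of 0.66 (SE 0.085, 95% interval 0.48 to 0.84, adjusted p = 3.34e-06) was called in each of the 19 settings run.

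*Stat5a* (Entrez 20850, chr11:100859351-100885169, + strand) held 46.8, 43.9 and 34.3 normalised reads in Ctrl and 51.5, 53.0 and 55.8 in *Upf1*-cKO. All 3 *Upf1*-cKO libraries were higher than all Ctrl libraries, with the closest pair 46.8 and 51.5. For *Stat5a* the log2 fold change was 0.36 (SE 0.110, 95% interval 0.13 to 0.59, adjusted p = 0.00981). As for *Jak3*, the call was lost without Ctrl replicate 3 (0.23, adjusted p = 0.0620) and without *Upf1*-cKO replicate 3 (0.33, adjusted p = 0.0503), and with median centring (adjusted p = 0.0582) and without the trend (adjusted p = 0.0520).

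Log2(*Stat5b*/*Stat5a*) was 0.95, 0.92 and 1.10 in Ctrl and 1.37, 1.27 and 1.24 in *Upf1*-cKO. The mean was 0.99 ± 0.098 in Ctrl and 1.29 ± 0.069 in *Upf1*-cKO (SD, n = 3), a shift toward *Stat5b* in reads. The difference was 0.30, the groups did not overlap, and the exact permutation test again gave its smallest p of 0.1. Of the 50-base windows in the longest coding transcript, 15.8% of those in *Stat5a* and 11.8% of those in *Stat5b* occurred in the other transcript, so reads from these stretches could have been assigned to either gene or left out. No 50-base window was shared between *Jak1* and *Jak3*, *Pim1* and *Pim2*, *Cish* and *Socs2*, or *Socs2* and *Socs3*.

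Among the 10 members, the feedback inhibitor genes showed the largest differences. *Cish*, whose product CIS binds activated cytokine receptors and competes with STAT5 for docking, was the most strongly changed member. The gene (Entrez 12700, chr9:107296659-107302784, + strand), whose start carries the 2 motifs printed above, held 5.05, 2.98 and 4.62 normalised reads in Ctrl and 24.3, 20.4 and 23.3 in *Upf1*-cKO. These rested on 29 to 47 reads per Ctrl library and 226 to 276 per *Upf1*-cKO library. The mean was 4.21 ± 1.09 in Ctrl and 22.7 ± 2.03 in *Upf1*-cKO, a ratio of 5.38, and no Ctrl library came near the *Upf1*-cKO range. The log2 fold change was 2.20 (SE 0.175, 95% interval 1.84 to 2.57, adjusted p = 7.09e-09), and 118 of the 13426 genes had a larger one. It was called in each of the 19 settings run, at 2.02 to 2.46. GENCODE models on the opposite strand (*Gm17040*, *Gm17041*) cover 16.0% of its exon bases, and counting did not use strand, though no RefSeq gene overlaps *Cish*.

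*Socs3* (Entrez 12702, chr11:117966079-117970336, − strand) encodes an inhibitor that blocks JAK kinases bound to receptors of the IL-6 and G-CSF type. It was the least abundant member, at 1.65, 0.96 and 0.65 normalised reads in Ctrl and 4.83, 3.65 and 5.86 in *Upf1*-cKO, or 6 to 15 reads against 40 to 69. The lowest *Upf1*-cKO library was more than the highest Ctrl library plus the Ctrl SD of 0.512. The mean of 1.08 in Ctrl and 4.78 ± 1.10 in *Upf1*-cKO gave a ratio of 4.41 and a log2 fold change of 1.48 (SE 0.232, 95% interval 0.996 to 1.97, adjusted p = 2.98e-05). At such low levels the added 1 shrinks the difference, which was 2.22 with no pseudocount.

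*Socs2* (Entrez 216233, chr10:95383903-95417321, − strand), an inhibitor of growth hormone signalling and a STAT5 target in many tissues, was already well expressed in Ctrl. It held 44.9, 51.0 and 39.9 normalised reads there and 76.3, 83.3 and 97.5 in *Upf1*-cKO, with every *Upf1*-cKO library above the Ctrl range. The mean went from 45.2 ± 5.56 to 85.7 ± 10.8, a ratio of 1.89. The log2 fold change of 0.91 (SE 0.107, 95% interval 0.68 to 1.13, adjusted p = 1.16e-06) was called in each of the 19 settings run.

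The summed level of the 9 neutrophil genes was also higher in *Upf1*-cKO, as the plot of it beside *Cish*, *Socs3* and *Pim1* shows. Of these 9 genes, 4 were called higher and 5 were not called. Within Ctrl, replicate 1 had the highest neutrophil sum and also the highest value of *Cish*, *Socs3*, *Pim1*, *Jak3*, *Stat5a* and *Stat5b*. For *Socs2*, *Il2rg*, *Jak1* and *Pim2* it was replicate 2 that was highest. Within *Upf1*-cKO, replicate 1 had the highest sum and the highest *Cish*, *Stat5b*, *Jak1* and *Pim2*. It had the lowest *Pim1*, *Stat5a* and *Socs2*, and the middle value of *Socs3*, *Jak3* and *Il2rg*. Without Ctrl replicate 1 the log2 fold change was 2.32 for *Cish*, 1.67 for *Socs3* and 0.77 for *Pim1*, each larger than with it. For the other members the log2 fold change without Ctrl replicate 1 was -0.19 for *Il2rg*, -0.39 for *Jak1*, 0.49 for *Jak3*, 0.45 for *Stat5a*, 0.73 for *Stat5b*, 0.90 for *Socs2* and -0.45 for *Pim2*, and none of these 7 gained or lost a call. Per the study's methods the lineage stain that cells had to lack included CD11b, a surface protein of neutrophils. Its gene *Itgam* was called lower, at 33.2 ± 6.62 in Ctrl and 24.5 ± 3.85 in *Upf1*-cKO (adjusted p = 0.0199), with overlapping groups. Leaving out Ctrl replicate 1 left the *Upf1*-cKO libraries, with the higher neutrophil sums, as they were. The part of neutrophil RNA in the levels of these genes was not tested.

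**Figure D2:**
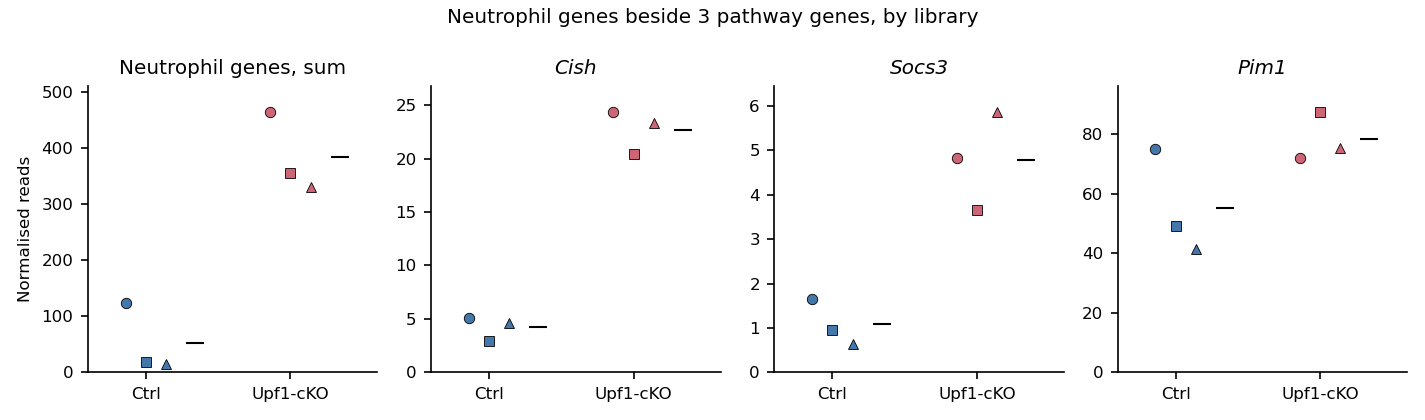
Summed normalised reads of 9 neutrophil genes and the normalised reads of Cish, Socs3 and Pim1 (vertical axes, linear from 0) in the 3 Ctrl (blue) and 3 Upf1-cKO (red) libraries; circles, squares and triangles are replicates 1, 2 and 3, and the short bar is the group mean. The sum is 123 in Ctrl replicate 1 against 19.0 and 14.7 in the other Ctrl libraries, and 331 to 464 in Upf1-cKO.

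The *Pim* genes encode constitutively active kinases that share substrates with AKT. *Pim1* (Entrez 18712, chr17:29490785-29496111, + strand) held 75.1, 49.3 and 41.6 normalised reads in Ctrl and 72.1, 87.5 and 75.5 in *Upf1*-cKO. Ctrl replicate 1 lay inside the *Upf1*-cKO range and the other Ctrl libraries below it. The coefficient of variation among Ctrl libraries was 31.7%, where counting alone would give 4.32%. The log2 fold change was 0.53 (SE 0.208, 95% interval 0.04 to 1.03), which missed the threshold (adjusted p = 0.0669). Without Ctrl replicate 1 it passed (0.77, adjusted p = 4.49e-06), as it did with total-read scaling (0.74, adjusted p = 0.0109) and with voom weights (0.55, adjusted p = 0.00746). It also passed with the replicate block, as given in the closing section. *Gm26885*, on the opposite strand, covers 15.0% of the *Pim1* exon bases.

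*Pim2* (Entrez 18715, chrX:7878306-7883432, + strand) was the less abundant of the pair. It held 7.49, 9.65 and 9.09 normalised reads in Ctrl and 7.56, 5.45 and 6.87 in *Upf1*-cKO, and the groups overlapped. Its log2 fold change was -0.36 (SE 0.177, 95% interval -0.73 to 0.01, adjusted p = 0.0991). It was called lower with median centring (-0.46, adjusted p = 0.0324) and with quantile normalization (-0.54, adjusted p = 0.0153).

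**Figure D3:**
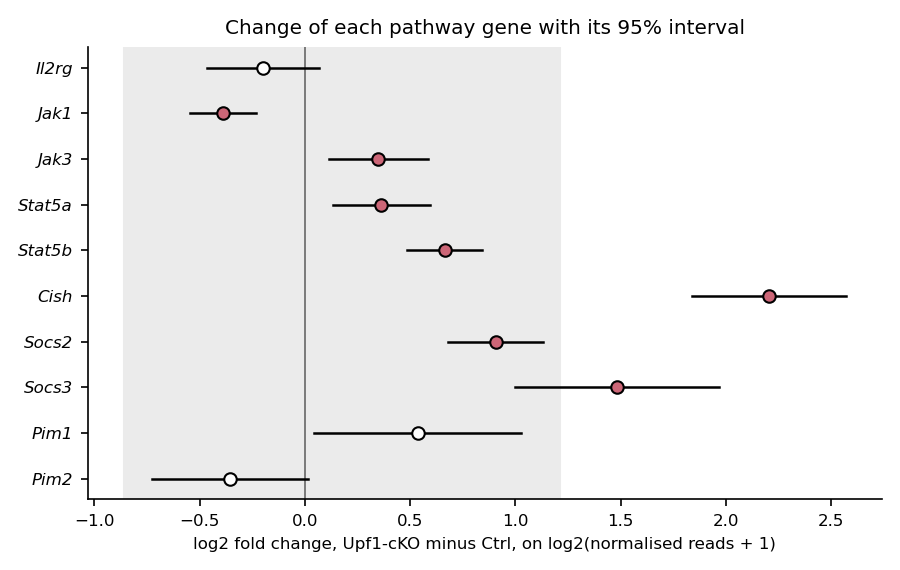
Log2 fold change (horizontal axis, Upf1-cKO minus Ctrl on log2(normalised reads + 1)) of the 10 members with limma's unadjusted 95% interval; filled points have an adjusted p below 0.05, open points do not, and the grey band spans the 5th to 95th percentile of all 13426 genes, -0.86 to 1.21. Cish and Socs3 lie above the band, and Jak1 is the only filled point below 0.

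Per kb of the longest coding transcript, where levels of different genes can be set side by side, *Jak1* led the Ctrl order at 49.9 ± 2.83 (SD, n = 3). *Pim1* (20.5), *Socs2* (20.4), *Stat5b* (16.0), *Jak3* (14.4), *Il2rg* (12.4), *Stat5a* (10.7), *Pim2* (4.27), *Cish* (1.48) and *Socs3* (0.425) followed. Neighbours whose Ctrl libraries overlapped were *Pim1* and *Socs2*, *Stat5b* and *Jak3*, *Jak3* and *Il2rg*, and *Il2rg* and *Stat5a*. In *Upf1*-cKO the order began with *Socs2* (38.6 ± 4.87) and *Jak1* (38.0 ± 1.62), which overlapped. *Pim1* (29.0), *Stat5b* (25.4), *Jak3* (18.2), *Stat5a* (13.7), *Il2rg* (10.7), *Cish* (7.96), *Pim2* (3.24) and *Socs3* (1.87) came after, with no further overlap between neighbours. *Socs2* thus moved level with *Jak1*, and *Cish* passed *Pim2*.

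The call of each member was followed through 18 alternative settings, of which *Socs3* could be given 17 because it lies under the higher filter. *Stat5b*, *Cish*, *Socs2* and *Socs3* were called higher in every setting that gave a value. *Jak1* was called lower in 18 of 19 settings including the reported one, and *Stat5a* and *Jak3* were called higher in 15 of 19. *Pim1* was called in 4, *Il2rg* in 2 and *Pim2* in 2. No member changed sign in any of these settings.

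**Figure D4:**
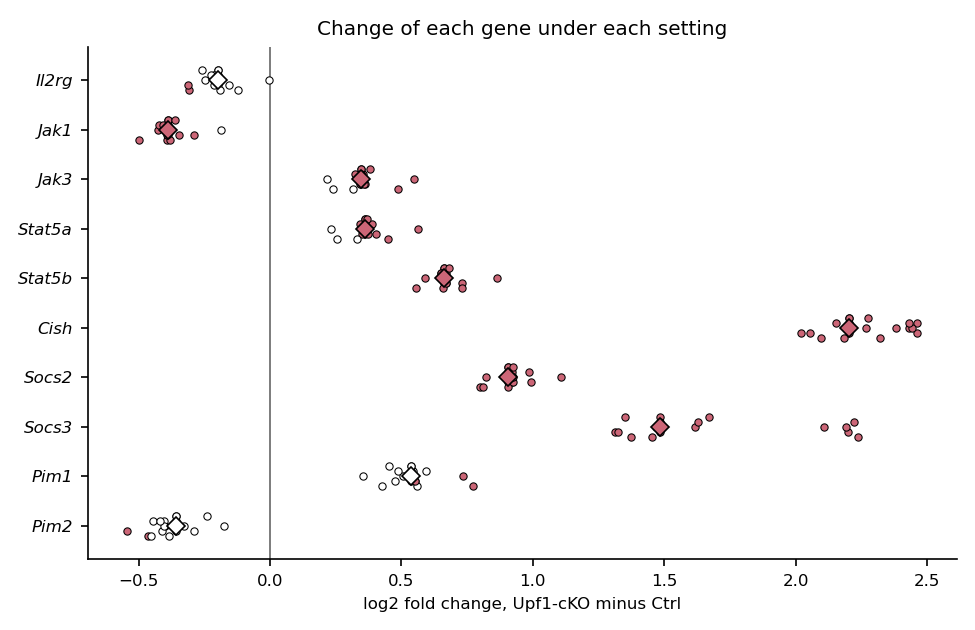
Log2 fold change (horizontal axis, Upf1-cKO minus Ctrl) of each member in the reported setting (diamond) and in up to 18 alternatives (circles); filled symbols have an adjusted p below 0.05. Vertical offsets only separate points. Stat5b, Cish, Socs2 and Socs3 are filled throughout, while Jak3, Stat5a, Pim1, Il2rg and Pim2 have both filled and open symbols.

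Around the members, 5 lists of pathway genes held 74 genes, 71 of them with a row. In *Upf1*-cKO, 22 were called higher, 20 lower and 29 were not called, with a median log2 fold change of -0.02. The share called was 90.0% of the receptor genes, 71.4% of the other JAK and STAT genes, 63.2% of the inhibitors, 57.1% of the PI3K and AKT genes and 28.6% of the reported STAT5 targets, beside 52.7% of all genes. The counts in each direction varied from list to list, as the plot of other genes around the pathway shows. The genes named with values are those called with the largest absolute log2 fold changes, at most 4 per list.

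Of 10 receptor genes, 7 were called higher, 2 lower and 1 was not called. *Flt3*, the FLT3 ligand receptor of early lymphoid progenitors, rose most, from 2.03 ± 0.495 to 29.8 ± 1.07 normalised reads (log2 fold change 3.36, adjusted p = 1.85e-11). *Kit*, the stem cell factor receptor that acts beside IL-7 on pro-B cells, rose from 8.70 ± 1.85 to 39.2 ± 2.11 (2.07, adjusted p = 1.44e-09). *Csf2rb*, the shared β chain of the IL-3, IL-5 and GM-CSF receptors, which also signals through STAT5, rose from 4.75 ± 0.643 to 23.3 ± 3.46 (2.07, adjusted p = 5.62e-09). *Il2ra*, the IL-2 receptor α chain (CD25), which appears on large and small pre-B cells, fell from 13.3 ± 0.921 to 1.67 ± 0.078 (-2.42, adjusted p = 2.96e-09), with *Il7r* the other gene called lower. The median over the 10 was 0.82, or 0.66 with *Il9r* set at its bound against a floor of 3 reads in each Ctrl library. *Il9r*, named after its values were seen, had no read in any Ctrl library and 27, 9 and 7 reads in *Upf1*-cKO. It exceeded 0.5 per 1000000 only in *Upf1*-cKO libraries, so it had a row through that group alone. The direction of its call, counted among the 7, was therefore fixed in advance and carries no weight.

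Of 7 other JAK and STAT genes, 5 were called higher and none lower, with a median of 0.47. *Stat2*, which carries type I interferon signals, rose from 46.3 ± 2.20 to 113 ± 7.27 normalised reads (log2 fold change 1.26). *Stat4*, the STAT of IL-12 signalling, rose by 1.04, and *Jak2*, the kinase bound to CSF2RB, by 0.86. With total-read scaling all 7 were called higher.

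The list of inhibitors of cytokine signalling held 19 other genes, some of them phosphatases and adaptors that can also promote signalling. Unlike *Cish*, *Socs2* and *Socs3*, more of these were called lower than higher. Of them, 2 were called higher, 10 lower and 7 not called, with a median of -0.27. With total-read scaling the counts were even, at 5 higher and 5 lower, and the median was -0.07. With median centring they were 1 higher and 12 lower. *Ptpn6*, which encodes the phosphatase SHP-1, fell from 254 ± 32.8 to 84.1 ± 3.03 normalised reads (-1.57). *Ptprc*, encoding the phosphatase CD45, fell from 277 ± 1.44 to 154 ± 5.59 (-0.84), and the ubiquitin ligase gene *Cblb* from 75.1 ± 7.73 to 44.0 ± 4.57 (-0.76). *Sh2b2*, an adaptor gene, rose from 1.36 ± 0.812 to 2.73 ± 0.412 (0.71, adjusted p = 0.0196), a call lost in 5 of the 17 alternatives that gave it a value, among them leaving out Ctrl replicate 2, Ctrl replicate 3 or *Upf1*-cKO replicate 2. *Socs1*, singled out after its values were seen as the remaining well known JAK inhibitor of this family, had a log2 fold change of 0.37 (adjusted p = 0.170).

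IL-7 also acts through PI3K and AKT. Of 21 genes of that arm, 7 were called higher, 5 lower and 9 not, and the median of 0.03 was close to that of all genes. With total-read scaling 11 were higher and 2 lower (median 0.23), and with median centring 6 were higher and 8 lower (median -0.08). *Tsc1*, a brake on mTORC1, rose from 80.5 ± 6.23 to 142 ± 3.14 normalised reads (0.82), and *Pik3cb*, a PI3K catalytic subunit, from 2.31 ± 0.507 to 4.35 ± 0.079 (0.71). *Akt1* fell from 335 ± 25.4 to 196 ± 7.49 (-0.76) and *Akt2* from 74.4 ± 4.84 to 52.6 ± 6.24 (-0.50).

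Of 14 further genes reported as STAT5 targets, which include genes that STAT5 represses, 1 was called higher, 3 lower and 10 were not called. Their median was -0.13. With total-read scaling 4 were higher and 3 lower (median 0.06), and with median centring 1 was higher and 6 lower (median -0.24). *Bcl6*, a transcriptional repressor that STAT5 is known to hold down in pre-B cells, fell from 8.77 ± 2.10 to 2.64 ± 2.08 normalised reads (-1.55). *Spi1*, the gene of the transcription factor PU.1, fell from 29.2 ± 2.47 to 12.6 ± 1.92 (-1.16), and *Ccnd3*, the cyclin D3 gene of cycling pre-B cells, from 639 ± 120 to 362 ± 19.3 (-0.80). *Osm*, the oncostatin M gene and an early STAT5 target, rose from 4.53 ± 1.05 to 8.12 ± 0.839 (0.73).

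**Figure D5:**
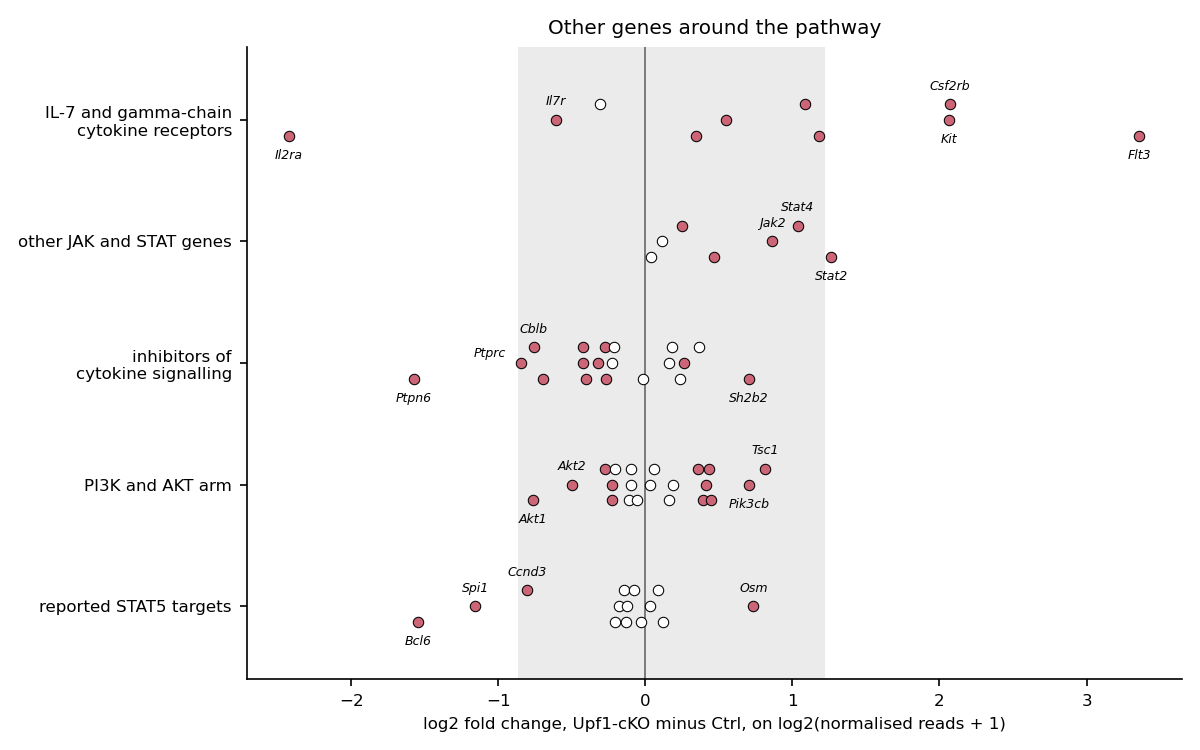
Log2 fold change (horizontal axis, Upf1-cKO minus Ctrl on log2(normalised reads + 1)) of each of the 71 genes in 5 lists around the pathway, 1 point a gene; filled points have an adjusted p below 0.05, and the grey band spans the 5th to 95th percentile of all 13426 genes. Flt3, Kit and Csf2rb lie right of the band among the receptors and Il2ra left of it, and filled points of the inhibitor list lie mostly below 0.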

How the data were processed

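Per the study's methods and labels, total RNA was depleted of ribosomal RNA, made into directional libraries and sequenced from a single end. HISAT2 aligned the reads to mm10, ignoring strand, and featureCounts (2.0.1) counted them per gene. Cutadapt (4.0) and limma (3.48.0) are also in the submitters' processing notes. The authors deposited a linear signal per Entrez gene and library. The values themselves gave the unit: adding 0.5 to a whole read number and dividing by 1 effective size per library yields every value (100% whole, tolerance 0.05 read), and the scaling method behind that size is not given in the sources used here. All 13426 genes exceed 0.5 per 1000000 in at least 3 libraries. RefSeq GRCm38.p6 named 13008 IDs and GENCODE M21 gave lengths and overlaps.

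The fit used limma 3.58.1 in R 4.3.3 (log2(value + 1), eBayes with trend and robust estimation, group only, Benjamini-Hochberg over all genes), and was tested on simulated data. Groups came from the labels. Libraries of a group differed by more than sampling noise, so all 6 were kept. P-values measure the spread between these libraries. Reads carry no molecular identifiers, so floors cover counting error only. Alternatives were a replicate block, other pseudocounts (0.1 or none), no trend, 3 other scalings, minimum mean log2 values of 1 and 3, leaving out each library, and 3 fits of the recovered reads (voom, edgeR 4.0.16, DESeq2 1.42.0). The members, the 5 pathway lists and the 7 marker lists were chosen with earlier results of these data known. Named genes were all members, *Upf1* and at most 4 called genes per pathway list, by largest absolute log2 fold change. One gene that met the rule is not reported here. Names outside that rule are stated as such or mark cells.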

Additional observations from a re-analysis of the deposited data

How the results depend on the processing

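No member, gene named by the rule or ratio changed sign under an alternative that gave it a value. Members called lower, 1 as reported, were 3 with median centring, 3 with quantile normalization and 0 with total-read scaling by limma, where *Jak1* had an adjusted p of 0.0507. Of the other pathway genes, 34 were higher and 12 lower with total-read scaling (22 and 20 as reported). Over all genes that scaling gave 5172 higher and 1936 lower (3725 and 3351 as reported) and median centring, which moved the median to -0.10, gave 2992 higher and 4355 lower. Other counts over the members, over the 5 pathway lists together and over all genes stayed within 1.5 times, whereas counts in single lists moved further with scaling, as given beside them. Leaving out each library in turn gave 4 to 7 members higher and 1 lower, 17 to 25 other pathway genes higher and 17 to 22 lower. The difference in log2(*Stat5b*/*Stat5a*) was then 0.26 to 0.36 and that in log2(*Jak3*/*Jak1*) 0.64 to 0.88. Same-numbered libraries deviated together with correlations of 0.13, -0.06 and -0.08, and Ctrl replicate 3 went best with *Upf1*-cKO replicate 2 (0.26). With 3 libraries per group these values cannot exclude pairing. The running numbers in the column headers place each *Upf1*-cKO library next to the Ctrl library of the same replicate number. The labels do not say what those numbers mean. With the replicate block, 3668 genes were higher and 3321 lower, 7 members were higher (*Pim1* gained the call, adjusted p = 0.0264) and 1 lower, 22 other pathway genes were higher and 21 lower, and the ratio differences were 0.30 and 0.74 (exact p = 0.25 each, the smallest that 3 pairs allow). *Socs3* had no value under the filter at 3. Its 6 to 15 reads per Ctrl library limit its precision, and its Ctrl coefficient of variation of 47.2% was above the 31.6% that counting alone would give.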
